A study of Homo sapiens with 112 samples.

Results

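A step in the concentration of darolutamide from 500 nM to 2 µM was followed in LAPC4 cells that had been exposed to androgen and drug for 22 h. LAPC4 is a human prostate cancer cell line that responds to androgen. The comparison rests on 10 RNA-seq libraries, 5 per dose, out of 57 from LAPC4 and 55 from VCaP cells. Of 58684 listed genes, 18204 were tested, which reached 10 reads in 4 or more of the 57 LAPC4 libraries. Members were the libraries whose labels name LAPC4, R1881, one of the 2 doses of darolutamide and 22 h. All cells were first starved for 2 days with charcoal-stripped serum, which is depleted of hormones. The low-dose group then received 1 nM R1881, a synthetic androgen, plus 500 nM darolutamide, and the high-dose group 1 nM R1881 plus 2 µM darolutamide. Vehicle (DMSO, 7 libraries) and 1 nM R1881 alone (10 libraries) at 22 h served as references, as did the same doses at 8 h (5 libraries each) and at 22 h in the second cell line, VCaP (4 libraries with 500 nM and 5 with 2 µM). Each group stands for 1 cell line, and the methods of the study give biological replicates without further detail.

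Androgen acts on prostate cells as a steroid hormone, by switching genes of secretion, lipid metabolism and growth on or off. Darolutamide, a prostate cancer drug, competes with androgen and blocks this response. A rise in the dose of such a competitor moves genes that androgen induces down and genes that androgen represses up, and how much is left to move depends on how far the lower dose has already blocked each gene.

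Depth was similar at both doses, with library totals of 13774432 to 23373889 counted reads at 500 nM (median 19313067) and 15920671 to 22855678 at 2 µM (median 20085614). Genes that mark luminal prostate cells summed to 3569 to 3987 CPM at 500 nM and to 3602 to 3926 CPM at 2 µM, where CPM is the usual depth-scaled read count after TMM normalisation. ERG, which a gene fusion drives in VCaP cells, was at or near 0. Of 8 stromal markers, 6 stayed under 10 reads in every library, and the sums over the 8 were 3.17 to 4.75 CPM at 500 nM and 3.95 to 5.57 CPM at 2 µM. Of 8 immune and endothelial markers, 7 stayed under 10 reads. Basal markers summed to 135 to 165 CPM and 126 to 147 CPM, with TP63 under 10 reads. In bulk RNA, fewer cells that express a gene and less RNA per cell cannot be told apart. The libraries also differed in how log2 CPM changed with the GC content of the genes, by -0.0634 to -0.0312 per percent GC at 500 nM and by -0.0788 to -0.0315 at 2 µM, and the 2 groups overlapped in this slope.

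At 22 h the higher dose lowered 39 genes (0.214% of those tested) and raised 8 (0.0439%), which together are 47 genes (0.258%). Calls are those below 0.05 in the quasi-likelihood test of edgeR after Benjamini-Hochberg adjustment. The falls included C1orf116, a gene named for its specific regulation by androgen, the matrix protein gene FN1, the prostaglandin-inactivating enzyme HPGD and the chaperone partner FKBP5. ANXA1, which encodes a phospholipid-binding protein, and SCNN1G, a subunit of the epithelial sodium channel, were among the rises. Most changes were small, with a median absolute log2 fold change of 0.34 over the called genes and 35 of the 47 under 0.5. Only CHRNA2, ZBTB16 and NNMT moved by more than 1 on the log2 scale, and all 3 fell. The 5 libraries of one dose lay wholly below or above those of the other for 43 of the 47 genes, 35 lower and 8 higher at 2 µM, against 0.621% and 0.566% of all genes tested. ZNF385B, RHOU, ST6GALNAC1 and AFF3 were called although their groups overlapped. At an unadjusted p under 0.05 there were 977 genes. Fitted on the 10 libraries alone, the same test called 11 genes, and with the GC slope of each library as a covariate it called 181, among them all 47.

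**Figure D1:**
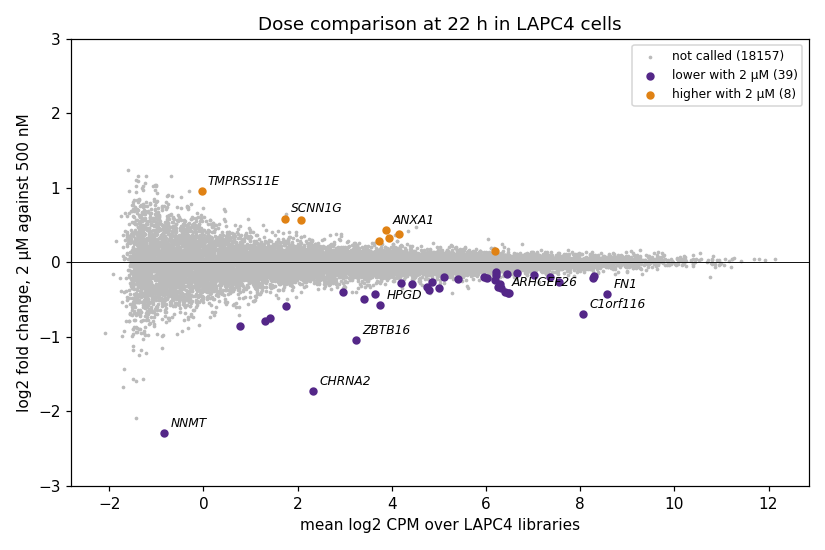
Change between the doses in LAPC4 cells at 22 h for the 18204 genes tested. The x axis gives the mean log2 CPM and the y axis the log2 fold change of 2 µM against 500 nM, with called genes in colour. The 39 falls and 8 rises lie close to the zero line apart from a few genes of low level, among them NNMT at -2.29 and CHRNA2 at -1.72.

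C1orf116 gave the clearest difference. At 500 nM its 5 libraries read 273, 274, 281, 277 and 285 CPM, and at 2 µM they read 175, 172, 172, 174 and 169 CPM. The doses were far apart, and the high-dose libraries overlapped with DMSO, where the mean was 162 ± 8.14 CPM (SD, n = 7). R1881 alone gave 518 ± 13.2 CPM (SD, n = 10), so the low dose stood between vehicle and androgen. The log2 fold change of 2 µM against 500 nM was -0.69 (SE 0.0328, adjusted p = 2.96e-23, edgeR). The gene lies on the minus strand at chr1:207018522-207032756 (GRCh38). Its promoter is shown beside those of FN1 and of KLK3, the gene of prostate-specific antigen. C1orf116 and FN1 were taken as called genes with small p that have a listed promoter, and KLK3 was added by name. KLK3 itself was not called between the doses. Each is the 250 bases before the RefSeq start site on GRCh38.p14, read 5′ to 3′ on the strand of the gene. The hexamer AGAACA, which steroid receptors can bind, is in capitals where it occurs. The C1orf116 sequence is chr1:207032757-207033006 (minus strand), that of FN1 is chr2:215436069-215436318 (minus strand) and that of KLK3 is chr19:50854665-50854914 (plus strand).
C1orf116: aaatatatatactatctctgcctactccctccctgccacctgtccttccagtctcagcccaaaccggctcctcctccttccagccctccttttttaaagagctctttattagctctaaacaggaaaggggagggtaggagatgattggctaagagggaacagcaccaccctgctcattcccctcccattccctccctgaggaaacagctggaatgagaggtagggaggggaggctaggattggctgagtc
FN1: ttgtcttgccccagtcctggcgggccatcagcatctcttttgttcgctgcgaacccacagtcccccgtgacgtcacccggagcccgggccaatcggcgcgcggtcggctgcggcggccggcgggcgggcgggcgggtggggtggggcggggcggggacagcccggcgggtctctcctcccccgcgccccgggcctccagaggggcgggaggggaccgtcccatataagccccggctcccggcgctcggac
KLK3: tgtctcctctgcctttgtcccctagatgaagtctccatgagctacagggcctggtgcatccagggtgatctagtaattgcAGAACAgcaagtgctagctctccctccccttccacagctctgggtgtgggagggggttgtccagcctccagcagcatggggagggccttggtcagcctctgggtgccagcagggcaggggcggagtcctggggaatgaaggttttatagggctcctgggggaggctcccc
The hexamer occurred once, in KLK3, with its first base at -170 from the start, and in neither of the other promoters on either strand. Over all 35116 RefSeq promoters of this length, 12.4% held AGAACA or its reverse complement TGTTCT. Of the 47 called genes, 34 were matched by symbol to 63 such promoters, and 5 of these (7.94%) held it, those of IQGAP2, KANK1, MACROD2, MBP and ZNF385B. The full palindrome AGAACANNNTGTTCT was found in 1 of all promoters and in 0 of those of called genes.

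ARHGEF26 and TBC1D1 encode regulators of small GTPases. ARHGEF26, an exchange factor for RhoG (chr3:154121003-154257827), was at 79.5, 91.4, 78.6, 85.4 and 80.3 CPM with 500 nM and at 60.8, 64.2, 62.9, 64.7 and 63.4 CPM with 2 µM. The doses did not overlap, and the high dose lay within the range of DMSO (62.5 ± 2.39 CPM, SD, n = 7). R1881 alone gave 125 ± 4.14 CPM (SD, n = 10). It fell by 0.39 on the log2 scale between the doses (SE 0.0354, adjusted p = 1.61e-11, edgeR). TBC1D1, a GTPase-activating protein for Rab proteins (chr4:37891084-38139175), had 75.9, 80.2, 82.1, 81.2 and 77.5 CPM at 500 nM against 65.9, 69.1, 66.8, 68.2 and 67.1 CPM at 2 µM. Every low-dose library was above every high-dose library, with a log2 fold change of -0.23 (SE 0.0349, adjusted p = 3.15e-05, edgeR). Other called genes of this kind, grouped after their values were seen, were RAB3B, a GTPase of secretory vesicles (log2 fold change -0.41), RHOU (-0.18) and the scaffold protein gene IQGAP2 (-0.34).

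FN1, which encodes fibronectin (chr2:215360440-215436073), was near its level with R1881 alone at the low dose and near DMSO at the high dose. With 500 nM the libraries were at 493, 532, 501, 538 and 496 CPM, which overlapped with R1881 alone (497 to 587 CPM, mean 527 ± 31.2, SD, n = 10). With 2 µM they were at 377, 384, 376, 411 and 364 CPM, which overlapped with DMSO (363 ± 19.4 CPM, SD, n = 7). The log2 fold change between the doses was -0.42 (SE 0.0486, adjusted p = 5.56e-08, edgeR). Against R1881 alone, the low dose gave -0.04 (SE 0.042, adjusted p = 0.782), a value that missed the threshold. Expressed as a share of the log2 change caused by R1881, 92.2% ± 11.1 was left at 500 nM and 14.2% ± 12.2 at 2 µM (SD, n = 5 each). For C1orf116 the same shares were 46.5% ± 1.49 and 5.48% ± 1.25, and for HPGD 26.8% ± 2.52 and 3.83% ± 3.0. LAMA3, a laminin chain, fell as well (log2 fold change -0.32), as did SERPINE2, a secreted inhibitor of serine proteases (chr2:223975045-224039318). SERPINE2 had 31.3, 34.2, 32.2, 33.8 and 32.6 CPM at 500 nM and 25.7, 26.3, 24.9, 28.0 and 24.7 CPM at 2 µM, without overlap. Its log2 fold change was -0.34 (SE 0.0513, adjusted p = 3.78e-05, edgeR).

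**Figure D2:**
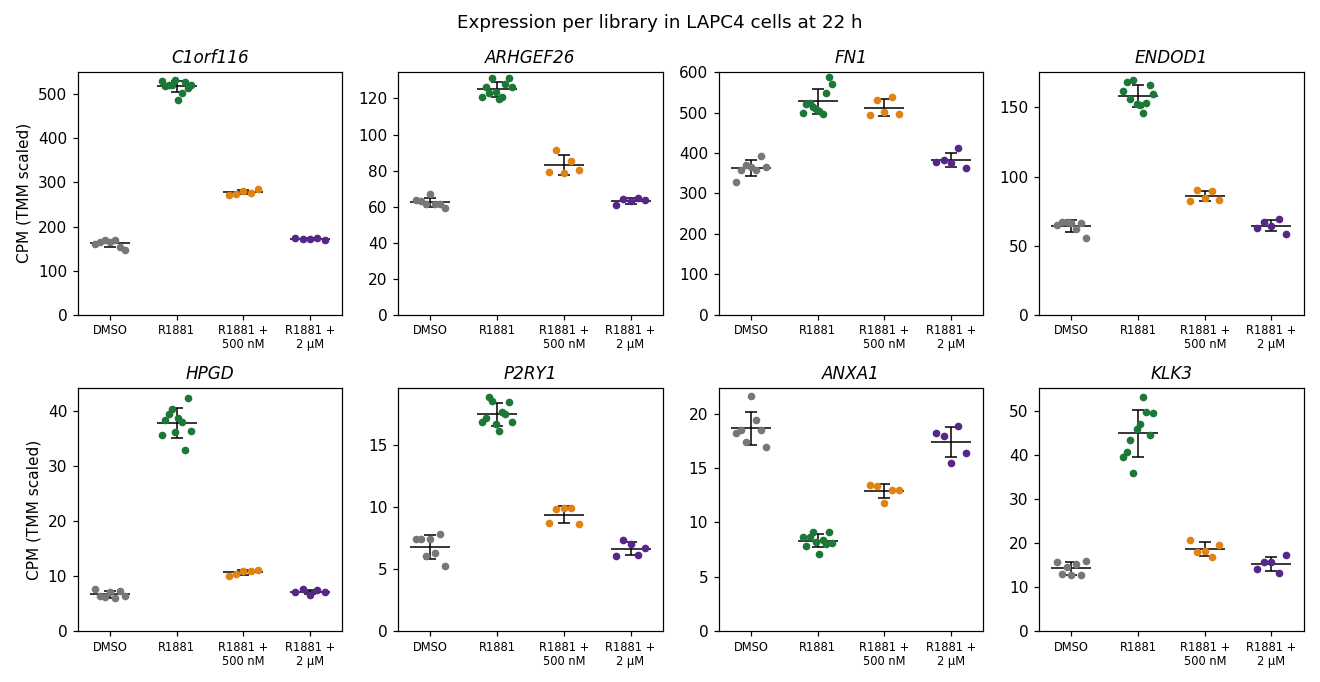
CPM of called genes and KLK3 in each LAPC4 library at 22 h with DMSO, R1881, 500 nM and 2 µM darolutamide plus R1881. Points are libraries, horizontal lines are group means and error bars are the SD. For C1orf116 the low dose lies between 273 and 285 CPM and the high dose between 169 and 175 CPM, while FN1 at 500 nM overlaps with R1881 alone.

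HPGD, ENDOD1 and CHRNA2 were the other falls among the 8 with the smallest p. HPGD (chr4:174490175-174523154) was at 9.98, 10.4, 10.9, 10.9 and 11.1 CPM with the low dose and at 7.08, 7.60, 6.64, 7.43 and 7.05 CPM with the high dose. The groups were apart, although R1881 alone reached 37.9 ± 2.68 CPM (SD, n = 10) and both doses lay nearer to DMSO (6.71 ± 0.633 CPM, SD, n = 7). The change was -0.57 on the log2 scale (SE 0.0801, adjusted p = 7.48e-06, edgeR). ENDOD1, which encodes a protein with an endonuclease domain (chr11:95089846-95132645), gave 82.2, 90.2, 84.5, 89.4 and 82.7 CPM against 63.1, 67.4, 64.1, 69.6 and 58.5 CPM. It fell by 0.41 (log2, SE 0.051, adjusted p = 4.17e-07, edgeR), and the doses did not overlap. CHRNA2, a subunit of the nicotinic acetylcholine receptor, had 3.17, 1.70, 2.93, 2.53 and 2.61 CPM at 500 nM and 0.877, 0.612, 0.53, 0.803 and 1.15 CPM at 2 µM. These are 33 to 73 reads and 11 to 23 reads per library, and the groups were apart. CHRNA2 had risen from 0.776 ± 0.253 CPM with DMSO (SD, n = 7) to 21.3 ± 2.18 CPM with R1881 (SD, n = 10), and its change between the doses was -1.72 (log2, SE 0.228, adjusted p = 1.96e-06, edgeR).

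Among the other 31 falls were the ADP receptor gene P2RY1 (log2 fold change -0.49, adjusted p = 0.00016), the fatty acid elongase ELOVL7 (-0.34, adjusted p = 0.000759), the scaffold protein gene HOMER2 (-0.26) and the zinc transporter SLC30A4 (-0.29). Transcription factors and cofactors included ZBTB16, ETS1 (-0.75), the Hippo pathway coactivator WWTR1 (-0.22), EAF2 (-0.43), AFF3 (-0.39) and ZNF385B (-0.29). ZBTB16 went from 10.2, 5.11, 8.95, 7.01 and 7.15 CPM to 3.88, 3.01, 4.40, 3.21 and 4.35 CPM, a log2 change of -1.04 (SE 0.183, adjusted p = 0.000759, edgeR), with wide spread at the low dose but no overlap. NNMT, nicotinamide N-methyltransferase, had the largest fitted change of the called genes, -2.29, on very few reads: 14, 11, 10, 5 and 5 at 500 nM and 1, 0, 3, 2 and 3 at 2 µM. The groups did not overlap, yet the size of this change is poorly fixed at such depth (SE 0.50, adjusted p = 0.0165). Enzymes and transporters at the lower end were the sialyltransferase ST6GALNAC1 (-0.78), monoamine oxidase A, MAOA (-0.58, adjusted p = 0.0497), the glucose transporter SLC2A12 (-0.37) and the hydrolase ABHD2 (-0.21). LRIG1 (-0.17), CLDN8 (-0.28), FAM134B (-0.20), PHF8 (-0.15), LINC01128 (-0.20), MBP (-0.15), ZNF75D (-0.20), KANK1 (-0.13) and the uncharacterised transcript CTD-2260A17.2 (-0.85) fell as well, as did FKBP5 and TMPRSS2.

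The 8 rises were all under 1 on the log2 scale. Fitted on the 10 libraries alone, 0 of the 8 were called, with an adjusted p of 0.0767 for ANXA1 and CA10 and of 0.533 for TMPRSS11E as the lowest and highest. ANXA1 (chr9:73151865-73170393) had 13.4, 13.4, 11.8, 12.9 and 12.9 CPM with 500 nM and 18.2, 18.0, 15.5, 18.9 and 16.4 CPM with 2 µM. All high-dose libraries were above all low-dose libraries and overlapped with DMSO (18.7 ± 1.53 CPM, SD, n = 7), whereas R1881 alone gave 8.31 ± 0.613 CPM (SD, n = 10). The log2 fold change was 0.43 (SE 0.0703, adjusted p = 0.000185, edgeR). CA10, which encodes a carbonic anhydrase-related protein (chr17:51630313-52160017), read 18.5, 18.8, 18.0, 19.6 and 18.2 CPM against 24.6, 25.9, 22.3, 26.3 and 22.2 CPM. It rose by 0.38 (log2, SE 0.0708, adjusted p = 0.00175, edgeR) without overlap. SCNN1G (chr16:23182745-23216883) had 3.21, 2.63, 2.59, 2.2 and 3.44 CPM at the low and 4.38, 4.63, 4.44, 3.51 and 4.35 CPM at the high dose, a change of 0.59 (log2, SE 0.124, adjusted p = 0.011, edgeR). The gap between its groups was narrow, with 3.44 CPM as the highest low-dose and 3.51 CPM as the lowest high-dose value.

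MMP10, a secreted matrix metalloproteinase (chr11:102770502-102780628), was at 16.4, 18.3, 18.2, 16.3 and 17.6 CPM with the low dose and at 21.7, 22.6, 21.8, 22.0 and 20.8 CPM with the high dose. It rose by 0.33 (log2, SE 0.0793, adjusted p = 0.0497, edgeR). Its groups were apart, but the call was lost in each of the 10 fits that left out 1 library. MACROD2, an enzyme that removes ADP-ribose (chr20:13995369-16053197), had 11.6, 11.8, 13.0, 12.3 and 12.3 CPM against 14.8, 14.3, 14.5, 16.5 and 14.1 CPM, a log2 change of 0.29 (SE 0.0638, adjusted p = 0.0186, edgeR). TMPRSS11E, a membrane-bound serine protease (chr4:68447463-68497604), rested on 8 to 19 reads per library at 500 nM and 21 to 32 reads at 2 µM, which are 0.347, 0.980, 0.440, 0.651 and 0.730 CPM and 1.32, 1.40, 1.10, 1.05 and 1.15 CPM. These did not overlap, and its log2 change was 0.95 (SE 0.203, adjusted p = 0.0129, edgeR).

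CHMP4C and PCSK6 rose between the doses without having been called for R1881. CHMP4C, a component of the ESCRT machinery for membrane scission, had 71.7, 73.4, 73.2, 70.1 and 68.7 CPM at 500 nM and 75.9, 83.9, 76.9, 82.4 and 79.2 CPM at 2 µM (log2 fold change 0.16, SE 0.0319, adjusted p = 0.00696, edgeR). Its doses did not overlap, while DMSO (75.5 ± 3.02 CPM, SD, n = 7) and R1881 (73.7 ± 1.10 CPM, SD, n = 10) lay between the means of the doses. PCSK6, a proprotein convertase (chr15:101289784-101525202), had 3.73, 3.51, 3.76, 3.54 and 2.77 CPM and 5.64, 5.16, 4.63, 4.87 and 5.40 CPM (log2 fold change 0.56, SE 0.128, adjusted p = 0.022, edgeR). The high dose was above every low-dose library and above the mean of DMSO (4.32 ± 0.512 CPM, SD, n = 7), although some DMSO libraries overlapped with it. CTD-2260A17.2 was the only fall not called for R1881.

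Next, the dose step was set against the effect of R1881 on DMSO, which was computed from other libraries. Of the 47 genes, 44 were called for R1881 against DMSO, where 13.3% of all tested genes were called. The dose change of all 44 ran opposite to the R1881 change. Among all 1244 genes that R1881 induced (6.83% of those tested), 978 (78.6%) had a lower estimate at 2 µM than at 500 nM, with a median log2 fold change of -0.06, and 38 were called. Among the 1174 genes that R1881 repressed (6.45%), 908 were higher and 22.7% lower, with a median of 0.04, and 6 were called. For comparison, 53.3% of the 15786 genes not called for R1881 were lower, and the median of all tested genes was -0.01. When single 2 µM libraries were used in turn, the median varied with an SD of 0.0242 for induced and 0.0651 for repressed genes. The shift of the repressed genes was smaller than their SD, and that of the induced genes was larger. This SD describes single libraries and is not the error of a shift between groups of 5. The mean log2 CPM of the induced genes was 4.92 to 4.94 in the low-dose and 4.84 to 4.86 in the high-dose libraries, with no overlap. It was 4.79 to 4.83 with DMSO and 5.14 to 5.18 with R1881. Over the repressed genes, the means overlapped, with 4.57 to 4.65 at 500 nM and 4.60 to 4.73 at 2 µM.

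The dose change was graded with the size of the R1881 change. Genes that R1881 raised by more than 2 on the log2 scale (12 genes) had a median dose change of -0.68, those raised by 1 to 2 (57 genes) -0.30, and those raised by 0.5 to 1 (165 genes) -0.17. Of the 12 genes, 5 were called between the doses. Others had almost no reads, such as CCDC141 (means of 0.0583 and 0.0300 CPM, SE 0.957) and SLC38A4 (0.0843 and 0.0408 CPM, SE 0.992). The median of the 12 is therefore poorly fixed. For the 1010 induced genes below 0.5 the median was -0.05. On the repressed side it was 0.03 for the 977 genes with smaller changes and 0.14 for the 197 genes that fell by more than 0.5. Over all 2418 genes called for R1881, the slope of the dose change on the R1881 change was -0.22 (Pearson r = -0.64, Spearman rho = -0.63), a description across genes, which are not independent replicates. Of the change caused by R1881, the median left over the 234 induced genes with a log2 fold change above 0.5 was 32.7% at 500 nM and 5.31% at 2 µM. Over the 197 repressed genes beyond -0.5 it was 33.0% and 13.2%. More than 50% was left for 37 of the 234 genes at the low and for 15 at the high dose. The share was below 0 for 15 and for 73 of them. Single shares can vary widely between libraries. An example, named after its values were seen, is INE1 with 83.8% ± 74.1 at 500 nM and 121% ± 63.1 at 2 µM (SD, n = 5 each). The counts therefore do not tell which genes kept a response. The 2 percentages of a gene share the same DMSO and R1881 libraries.

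**Figure D3:**
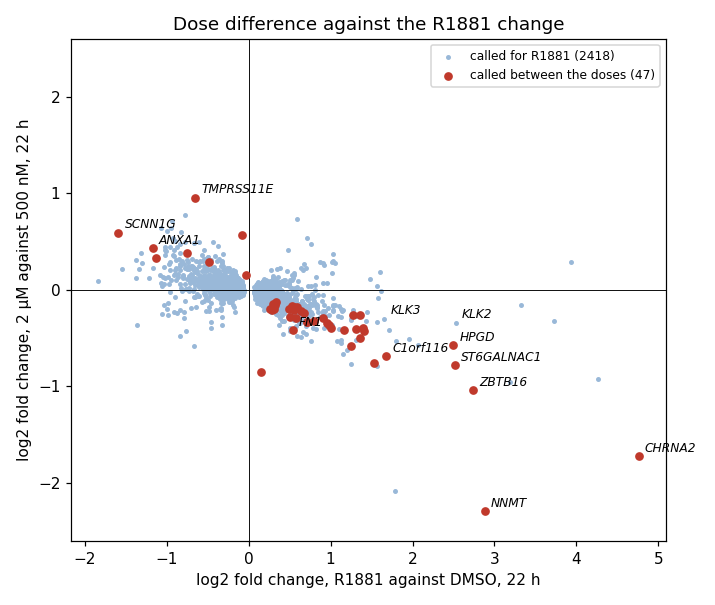
Log2 fold change of 2 µM against 500 nM darolutamide (y axis) against that of R1881 against DMSO (x axis) in LAPC4 cells at 22 h. Pale blue points are the 2418 genes called for R1881 and red points the 47 called between the doses, 44 of which were called for R1881 with the opposite sign.

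TMPRSS2, FKBP5, KLK2 and KLK3 are genes that the study's text places at super-enhancers, large clusters of regulatory elements, which it mapped in VCaP cells. In LAPC4 cells TMPRSS2, a membrane serine protease, went from 138, 131, 135, 138 and 135 CPM to 123, 117, 121, 113 and 129 CPM, a log2 change of -0.17 (SE 0.0349, adjusted p = 0.00918, edgeR). FKBP5 had 142, 157, 150, 152 and 151 CPM at 500 nM and 119, 134, 118, 140 and 117 CPM at 2 µM (log2 fold change -0.26, SE 0.0465, adjusted p = 0.000874, edgeR). Both genes were without overlap. The kallikrein genes did not pass the test. KLK3 (chr19:50854915-50860764) had 20.7, 18.0, 18.2, 16.8 and 19.5 CPM with the low and 14.0, 15.6, 15.6, 13.3 and 17.3 CPM with the high dose, which overlapped (log2 fold change -0.30, SE 0.101, adjusted p = 0.474). For KLK2 the values were 7.03, 7.17, 6.60, 6.58 and 8.14 CPM and 4.88, 4.72, 7.5, 5.87 and 5.05 CPM, also with overlap (-0.34, SE 0.143, adjusted p = 0.766). Reads of these related genes may be shared between them, so their counts are uncertain. Of other genes on the list of names set for this comparison, PMEPA1 missed the threshold (-0.16, adjusted p = 0.0733) although its groups, 41.0 to 46.8 CPM and 35.3 to 40.9 CPM, were apart. ACPP gave 0.12 (adjusted p = 0.952), IGF1R -0.04 and NCAPD3 -0.07 (adjusted p = 1.00 for both), and ACPT had too few reads to be tested.

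Gene groups were described by their counts and their median. Over all tested genes the median was -0.01, 0.258% were called and 5.37% had an unadjusted p under 0.05. Of 79 tested genes of a general androgen-induced list, 8 fell (TMPRSS2, FKBP5, HPGD, ELOVL7, C1orf116, HOMER2, IQGAP2 and RHOU) and 0 rose, with a median of -0.06. Of the 79, 39 were called as induced by R1881 in these cells and 8 as repressed. In the list of 17 androgen-repressed genes, of which R1881 repressed 6 and induced 5 by the same test, CA10 rose. The next by p was the steroid-glucuronidating enzyme UGT2B15 (0.25, adjusted p = 0.458). The 5 tested kallikreins had a median of -0.34 with 0 called by edgeR, 3 at an unadjusted p under 0.05 and 0 by DESeq2, and KLK4 gave -0.42 (adjusted p = 0.677). Of 13 genes that glucocorticoids also induce, ZBTB16 and FKBP5 fell. Among 13 genes listed under purinergic and other receptor signalling, P2RY1 fell, as did ARHGEF26, an exchange factor rather than a receptor, with a median of -0.09. The lists were written with earlier results of these data known, so their counts of calls are descriptions only. ST6GALNAC1 fell among 17 glycosylation genes, whose median was 0.00, and GCNT1 gave -0.26 (adjusted p = 0.86).

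Lists of metabolism, stress and growth had 1 call in all, and their counts at an unadjusted p under 0.05 stand beside 5.37% of all tested genes. ELOVL7 was the 1 gene called among 20 of fatty acid synthesis and elongation, where ACSL1 gave 0.08 (adjusted p = 0.478). In each of the following lists 0 genes were called by edgeR and 0 by DESeq2. Among 24 genes of fatty acid oxidation 0 had an unadjusted p under 0.05, and of 24 genes of cholesterol synthesis 1 did. Of 42 genes of protein folding in the endoplasmic reticulum 6 did, led by the stress sensor ERN1 (-0.13, adjusted p = 0.339) and the transcription factor XBP1 (0.09, adjusted p = 0.458). Amino acid and ATF4 stress genes had 1 of 25, the arginine transporter SLC7A1 (-0.20), and PI3K-AKT-mTOR genes had 2 of 32, IRS1 (-0.25) and MTOR (-0.10), with a median of -0.04. The cell-cycle list had 1 of 48, the replication licensing factor MCM4 (-0.08), with a median of -0.02. ERK feedback genes had 3 of 14, 1 of them lower, with FOSL1 at 0.72 (adjusted p = 0.717) and DUSP5 at 0.24 (adjusted p = 0.901). Of the 14, 8 had a lower estimate at 2 µM, with a median of -0.02. Polyamine genes had 0 of 10, with OAZ2 and ODC1 both at 0.06, while 7 of the 10 were lower and the median was -0.04. Of 7 targets of the aryl hydrocarbon receptor, a sensor of foreign compounds, 0 were called and 1 had an unadjusted p under 0.05, TIPARP (0.12, adjusted p = 0.925).

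The same dose step at 8 h gave 5 calls (0.0275% of tested genes), C1orf116, ARHGEF26, P2RY1, ELOVL7 and CYP1A1. The first 4 were also called at 22 h. C1orf116 had 220, 201, 207, 225 and 208 CPM at 500 nM and 147, 148, 147, 152 and 151 CPM at 2 µM after 8 h, again without overlap. P2RY1 went from 9.32, 10.1, 10.6, 10.2 and 9.85 CPM to 6.65, 8.55, 7.25, 6.61 and 6.72 CPM, and ELOVL7 from a range of 71.6 to 75.9 CPM to one of 54.3 to 64.7 CPM. Of the 47 genes called at 22 h, 45 (95.7%) had the same sign at 8 h, against 57.1% of all tested genes, and 34 (72.3%) had an unadjusted p under 0.05 at 8 h, against 3.16% of all. FN1 gave -0.17 at 8 h (SE 0.0486, adjusted p = 0.645), where it was lower in all 5 high-dose than in all 5 low-dose libraries. CA10 gave 0.07, CHMP4C 0.00 and TMPRSS2 -0.02 at 8 h (adjusted p = 1.00 for each). The interaction of dose and time was called for 0 genes by edgeR and 0 by DESeq2, and 422 had an unadjusted p under 0.05. With the replicate number and the GC slope as covariates together it was called for 5 genes.

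CYP1A1, a drug-metabolising enzyme and the best-known target of the aryl hydrocarbon receptor, was the 1 gene (0.00549%) that rose at 8 h. It had 78.7, 78.9, 74.2, 72.7 and 76.5 CPM at 500 nM and 107, 110, 106, 109 and 114 CPM at 2 µM, without overlap (log2 fold change 0.52, SE 0.0946, adjusted p = 0.00545, edgeR). At 22 h it was at 13.1, 13.2, 13.6, 14.7 and 13.6 CPM and at 15, 16.2, 12.9, 15.7 and 16.3 CPM, which overlapped (0.16, SE 0.11, adjusted p = 1.00). Its dose effects at the 2 times differed by -0.36 (SE 0.145), which was not called.

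**Figure D4:**
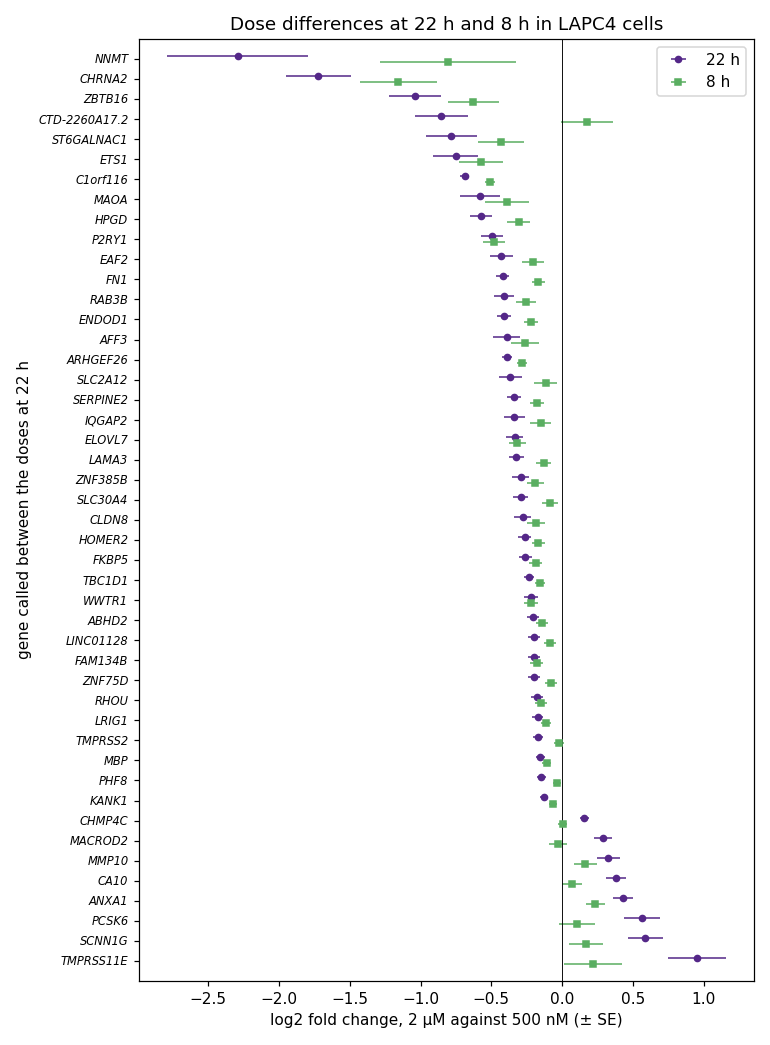
Log2 fold change of 2 µM against 500 nM darolutamide (x axis, with SE) for 46 of the 47 genes called at 22 h in LAPC4 cells, 1 gene per line, at 22 h (circles) and at 8 h (squares). Nearly all have the same sign at both times, and NNMT has the lowest estimate and the widest error.

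Compared with DMSO, 118 genes (0.648%) were called with 500 nM darolutamide plus R1881, 86 higher (0.472%) and 32 lower (0.176%), and 3 genes (0.0165%) with 2 µM. Both comparisons use the same DMSO libraries. The 3 genes called at 2 µM, named after their values were seen, were SLC30A10, a manganese transporter, LRRC31 and RILPL2. SLC30A10 was at a mean of 2.28 CPM with DMSO and 1.15 CPM with 2 µM (log2 fold change -0.99, adjusted p = 0.000329, edgeR), while 500 nM gave -0.62 against DMSO (adjusted p = 0.0154). LRRC31 gave -0.24 with 2 µM (adjusted p = 0.044) and -0.30 with 500 nM (adjusted p = 4.18e-05), and RILPL2 gave 0.26 with 2 µM (adjusted p = 0.0081) and 0.15 with 500 nM (adjusted p = 0.199). R1881 alone lowered SLC30A10 (log2 fold change -1.36 against DMSO) and LRRC31 (-0.78). Of this change, 46.5% ± 16.5 was left for SLC30A10 at 500 nM and 72.0% ± 14.1 at 2 µM (SD, n = 5 each). For LRRC31 the shares were 38.9% ± 8.30 and 30.7% ± 11.6. The counts depended on the control libraries. With DMSO and R1881 replicates 1 to 5 they were 195 and 90, and with replicates 6 and above 43 and 1. DMSO at 22 h has 7 libraries, so the second subset holds fewer of them than the first. The number of controls and the choice of controls cannot be told apart here. Without high-dose replicate 1 or 5, 1 gene was left at 2 µM.

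In VCaP cells, the same step from 500 nM to 2 µM at 22 h called 20.2% of 19266 tested genes. Of the 47 LAPC4 genes, 45 were tested there, and 31 were called there, of which 22 moved as in LAPC4 and 9 the other way. The sign was shared by 31 of the 45 (68.9%), against 50.8% of the 16578 genes tested in both lines. A difference between the lines was itself called for 22 of the 45 genes, against 10.2% of the 16578. The effects ran in opposite directions for 13 of the 22, the VCaP change was larger for 5 and the LAPC4 change for 4. TMPRSS2 (VCaP log2 fold change -1.49, 602 ± 12.9 CPM at 500 nM and 215 ± 13.5 CPM at 2 µM, SD, n = 4 and 5) and FKBP5 (-1.43, 520 ± 32.0 and 193 ± 9.32 CPM) fell further in VCaP than in LAPC4 cells. C1orf116 fell in both (-0.25 in VCaP), further in LAPC4 by -0.42 (SE 0.0546, adjusted p = 1.16e-09 for the difference, edgeR). HPGD fell by 0.55 in VCaP, and the difference between the lines was 0.00 (SE 0.0971, adjusted p = 0.995).

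The 9 genes that moved in opposite directions were FN1, P2RY1, LAMA3, ANXA1, SLC30A4, ZNF385B, FAM134B, KANK1 and MAOA. FN1 rose in VCaP from 0.628 ± 0.172 to 1.28 ± 0.247 CPM (log2 fold change 1.02, SE 0.207, adjusted p = 0.000137, edgeR), where R1881 had lowered it from 5.78 ± 0.491 to 0.413 ± 0.186 CPM (SD, n = 8 and 9). P2RY1 rose there from 23.2 ± 1.25 to 31.5 ± 2.43 CPM, after R1881 had lowered it from 51.7 to 14.8 CPM. ANXA1 fell from 19.5 ± 2.52 to 14.1 ± 1.83 CPM (-0.46), and R1881 had raised it from 14.8 to 31.8 CPM. In all 9 genes the R1881 effect also had opposite signs in the 2 lines, and in all 22 genes that moved the same way it had the same sign. The dose change of the 31 genes called in VCaP ran against their R1881 change in VCaP in 31 of 31 cases. Where the dose change runs against the R1881 change in both lines, the matches of sign for the 9 and 22 genes follow. They are not a separate result. The share over all genes called in VCaP was not computed.

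**Figure D5:**
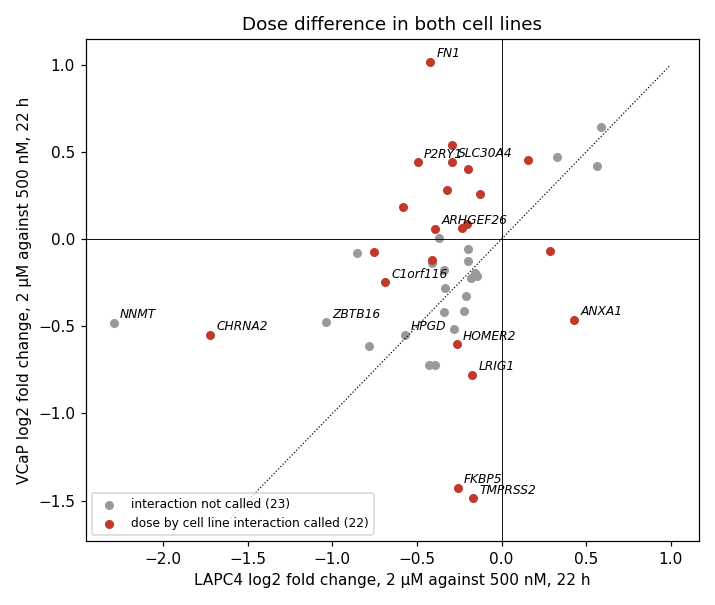
Log2 fold change of 2 µM against 500 nM darolutamide at 22 h in LAPC4 (x axis) and VCaP cells (y axis) for the genes called in LAPC4 and tested in both lines. Red points mark the 22 genes with a called difference between the lines, and the dotted line marks equal changes. FN1 lies at -0.42 in LAPC4 and 1.02 in VCaP, and TMPRSS2 at -0.17 and -1.49.

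The calls differed in how firmly they held. C1orf116, ARHGEF26, FN1, ENDOD1, CHRNA2, RAB3B and ELOVL7 were called in all 18 other settings tried, which left out libraries or changed the scaling, filter, covariates or test. When each of the 10 libraries was left out in turn, 21 of the 47 genes were called every time. In each of these settings all 47 kept the direction they had in the fit reported here. The settings refit the libraries in which the 47 were chosen, so the kept direction is no separate result.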

How the data were processed

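Messenger RNA of LAPC4 and VCaP cells was sequenced by the authors, who aligned it to GRCh38 (STAR), summarised reads by gene (featureCounts) and deposited 1 table of raw counts of all libraries. Neither the annotation used for counting nor its strand setting and handling of multi-mapped reads is given in the sources used here, so genes that overlap, lie antisense or share near-identical sequence have uncertain counts. Columns were matched to samples by the labels.

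All values come from these deposited counts, analysed in R 4.3.3. A gene was tested if 4 or more LAPC4 libraries had 10 or more reads on it. The 8 groups of LAPC4 libraries (57 libraries) were TMM-scaled and fitted together with the quasi-likelihood test of edgeR 4.0.16, so they share one estimate of the spread, and Benjamini-Hochberg adjusted p under 0.05 over all tested genes was called. The SE of a log2 fold change is its size over the root of the F statistic. CPM and log2 CPM (prior count 2) use the same scaling. The cell lines were compared by an interaction term in 1 fit of the libraries of both lines. The code was tested on simulated counts. DESeq2 1.42.0 and other scalings, filters, covariates and sample sets were alternatives.

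Positions are from GENCODE 44 on GRCh38, and promoters from RefSeq. The genes named are all those called between the doses or at 8 h, 4 genes that the study's text places at super-enhancers with 5 others listed beside them (PMEPA1, ACPP, ACPT, IGF1R and NCAPD3), and the 2 members of each gene list with the smallest p. Members, lists and rules were chosen with earlier results of these data known. No 2 libraries of a group were duplicates by a chi-square test of their counts (lowest chi-square per degree of freedom 1.85). The p-values measure the spread between these libraries. Results for some genes are not reported here.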

Additional observations from a re-analysis of the deposited data

Results flagged for a closer look

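For the genes called between the doses or listed with those at super-enhancers, and for depth, GC slope and the mean level of R1881-regulated genes, sets of 5 values, 1 per measure and dose, were examined for a library far from the others. Of these, 5 had one (4.46% of the sets), while chance alone marks about 1 in 20 sets. At 500 nM these were replicate 3 for ANXA1 (11.8 CPM, the others 12.9 to 13.4 CPM), replicate 5 for PCSK6 (2.77 CPM, the others 3.51 to 3.76 CPM), and replicate 1 for KANK1 (78.8 CPM, the others 73.0 to 73.6 CPM). At 2 µM they were replicate 4 for SCNN1G (3.51 CPM, the others 4.35 to 4.63 CPM) and for PMEPA1 (35.3 CPM, the others 40.0 to 40.9 CPM).

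The effect of the dose at 22 h differed between the cell lines by an interaction test for 1694 genes. As the LAPC4 minus the VCaP log2 fold change, the difference was -0.42 for C1orf116, -0.43 for ARHGEF26, -1.42 for FN1, -0.27 for ENDOD1, -1.16 for CHRNA2, -0.28 for TBC1D1 and -0.27 for CHMP4C. It was 0.92 for ANXA1, 1.19 for FKBP5, 1.34 for TMPRSS2 and 0.37 for MACROD2. Of the listed genes that were not called in LAPC4, KLK3 gave 0.64, ACPP 0.56, IGF1R 0.60 and NCAPD3 1.76.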

How the results depend on the processing

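Of the settings tried for the dose comparison at 22 h (47 genes called), edgeR with the size factors of DESeq2, DESeq2 itself, no filter on low counts and filterByExpr moved the count by less than 1.5 times. It was 11 with only the compared groups, 181 with the GC slope as a covariate and 3 beyond an absolute log2 fold change of 1. Leaving out 1 library gave 31 to 52 genes, with 31 without 2 µM replicate 5. At 8 h (5 genes) the counts were 2 with only the compared groups, 43 with the GC slope, 0 beyond an absolute log2 fold change of 1, and 4 to 8 when 1 library was left out, with 8 without 500 nM replicate 2. The difference between the cell lines (1694 genes) gave 3699 with the GC slope. For 500 nM against DMSO (118 genes) they were 69 without a filter, 59 with only the compared groups, 413 with the GC slope, 195 with controls 1 to 5 and 43 with controls 6 and above. For 2 µM against DMSO (3 genes) they were 1, 76, 90 and 1 for the last 4 of these, and 1 to 3 when 1 library was left out. The median dose change of R1881-induced genes (-0.06) was -0.091 with controls 6 and above and -0.20 for genes beyond 0.5, and that of repressed genes (0.04) was 0.14 beyond 0.5, 0.066 with controls 6 and above and 0.020 with the GC slope, and 0.022 to 0.058 when 1 library was left out, lowest without 2 µM replicate 4. The cause of these shifts was not tested, and with DMSO at 22 h controls 6 and above are fewer than controls 1 to 5.

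Libraries with the same replicate number were correlated at -0.05 to 0.29 in their deviations from the group means (mean 0.16, against -0.04 for other numbers), with 4 of 5 above 0.1 and 2 of 5 matching their own number best. The labels do not say what a number stands for, so pairing was not assumed. With this number as a replicate block, 9 genes were called at 22 h, 0 of them rises, 70 for 500 nM and 63 for 2 µM against DMSO. Without a block, the compared groups alone gave 11 at 22 h, also with 0 rises. The lower-numbered controls without a block gave 195 for 500 nM and 90 for 2 µM against DMSO. How much the block itself moved these counts was not tested. The block together with the GC slope gave 234 at 22 h, 164 at 8 h, 5 for dose and time, 3636 for the cell lines, and 795 and 1080 against DMSO.

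Depth limited genes with few reads, such as NNMT and TMPRSS11E.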

Other observations

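With the GC slope of each library as a covariate, 181 genes were called between the doses at 22 h, 146 lower and 35 higher at 2 µM, and 134 of them were not called without it. Of the 181, 149 were called for R1881, and the dose change of all 149 ran opposite to the R1881 change. The genes that follow were chosen after their values were seen. KLK4, another kallikrein, gave -0.36 (adjusted p = 0.000169, edgeR), SLC45A3, a transporter gene of the prostate, -0.28 (adjusted p = 4.17e-05) and STEAP2, a metalloreductase, -0.28 (adjusted p = 0.00688). On the side of genes that R1881 repressed, FOLH1, which encodes prostate-specific membrane antigen, gave 0.12 (adjusted p = 0.00024) and the proteoglycan gene VCAN 0.22 (adjusted p = 0.00185). Without the covariate the adjusted p of these 5 genes was 0.677, 0.498, 0.583, 0.177 and 0.383. The rises with the covariate also held genes not called for R1881. Among these were the ribosomal protein genes RPS2 (0.13, adjusted p = 0.0453, edgeR) and RPL13 (0.11, adjusted p = 0.0388). The list counts that follow stand beside 181 calls among all 18204 tested genes with the covariate, 146 of them lower. The lists were written with earlier results of these data known. Of the 79 genes of the androgen-induced list, 17 fell with the covariate, against 8 without it. Of 20 genes of fatty acid synthesis and elongation 4 were called with it, 3 of them lower, against 1 without it, and of 10 polyamine genes 1 against 0. Of 13 genes of receptor signalling 4 were called with it against 2, and of 13 genes that glucocorticoids also induce 3 against 2. The lists of fatty acid oxidation, cholesterol synthesis, protein folding, amino acid stress, PI3K-AKT-mTOR, the cell cycle and ERK feedback had 0 calls with it as well.

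A run of 6 tested zinc finger genes at chr19:51804816-52030240 (GRCh38), ZNF577, ZNF649, ZNF613, ZNF350, ZNF615 and ZNF614, was also noticed after the values were seen. R1881 induced all 6, with log2 fold changes of 0.54 to 0.93 against DMSO. Between the doses, 0 of the 6 were called without the covariate, with log2 fold changes of -0.14 to -0.27 and adjusted p of 0.0673 to 0.821. With the GC slope as a covariate 6 of 6 were called, at -0.16 to -0.29, beside 181 of all 18204 tested genes. The end genes of the run, ZNF577 and ZNF614, were themselves called in this fit. The count of 6 therefore partly follows from how the run was drawn and is no separate result. ZNF350 had a mean of 33.9 CPM at 500 nM and 28.0 CPM at 2 µM, beside 27.1 CPM with DMSO and 51.7 CPM with R1881. The median GC content of the 6 genes was 41.5%, against 47.2% over all tested genes with a value.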
